A study of Mus musculus with 12 samples.

Results

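Mitosis in subcutaneous Renca tumors was read from 38 genes of the mitotic kinases, the spindle and the kinetochore, named by symbol; no threshold on their values entered the choice, but earlier results of these data were known when it was made. All 38 were found among its 14496 genes, and all 38 lay among the 14008 genes that passed the filter on low values. Renca is a renal carcinoma line of BALB/C mice. Of the 12 tumors, 6 grew under the skin of mice that carried a tumor in the kidney at the same time, called an intra-kidney (IK) tumor in the labels, and 6 grew with no such tumor. All were taken on day 14 after injection into BALB/C mice, and no other treatment or allele is named. The IK tumor's own RNA was not analysed here. The comparison addresses how a tumor at a distant site relates to the transcriptome of the subcutaneous one. RNA came from whole tumors, tumor cells and stroma together, so that fewer cells of a type and less RNA per cell cannot be told apart. Separate mice are not stated for the 12 samples, so the spread on which p-values rest may not be that between mice. No 2 libraries of a group agreed within counting error (30 pairs).

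In mitosis, CDK1 bound to cyclin A or B drives entry, and the Aurora, Polo-like and NEK2 kinases act on centrosomes, spindle and chromosomes. Kinetochores built on centromeric chromatin attach chromosomes to microtubules, and the spindle assembly checkpoint holds the anaphase-promoting complex (APC/C) until attachment is complete. The APC/C then marks cyclin B and securin for destruction, and the cell divides. Most of these genes are transcribed late in the cell cycle under FOXM1, B-MYB and the MuvB complex, so that in bulk tissue their RNA is used as a readout of cycling cells.

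Each tumor gave 53312559 to 66142468 reads. Members were covered by at least 524 reads in every tumor (Itgb3bp, the lowest) and by at least 1505 for the other 37. Counting alone gives an SD of 0.0516 to 0.063 (log2) for Itgb3bp at its most and fewest reads, against a residual SD of 0.0801 between tumors, so that counting is a large part of its spread. For the other 37 the counting SD was at most 0.0372. Levels are log2 CPM (log2 of reads scaled to a common library size), and differences are tumors with an IK tumor minus tumors alone, on the log2 scale. Of the epithelial tumor cell markers 7 of 8 were measured, with means per tumor of 6.66 to 6.86 with an IK tumor and 6.61 to 6.90 alone. No keratinocyte marker was tested (0 of 7).

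All 38 mitotic genes had a higher mean in tumors with an IK tumor, where 53.3% of all tested genes did. Differences ran from 0.02 for the checkpoint gene Bub3 to 0.26 for the kinetochore gene Itgb3bp, with a median of 0.135 beside 0.007 for all tested genes. These are folds of 1.01 to 1.20. No member passed the test over all genes (limma, Benjamini-Hochberg adjusted p of 0.432 to 0.867), and neither did any other of the 14008 genes (0.0% called, also with voom on the recovered reads), of which 1608 had an unadjusted p under 0.05. Unadjusted p was under 0.05 with a higher mean in 21 of the 38, against 5.86% of all genes, and with a lower mean in 0, against 5.61%. The members varied together within each group, so that these are not 21 separate results. The correlation of their deviations from the group mean had a median of 0.81 over 703 pairs, from 0.04 to 0.97. That is a description over 12 tumors, in which every pair of genes shares the same libraries.

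**Figure D1:**
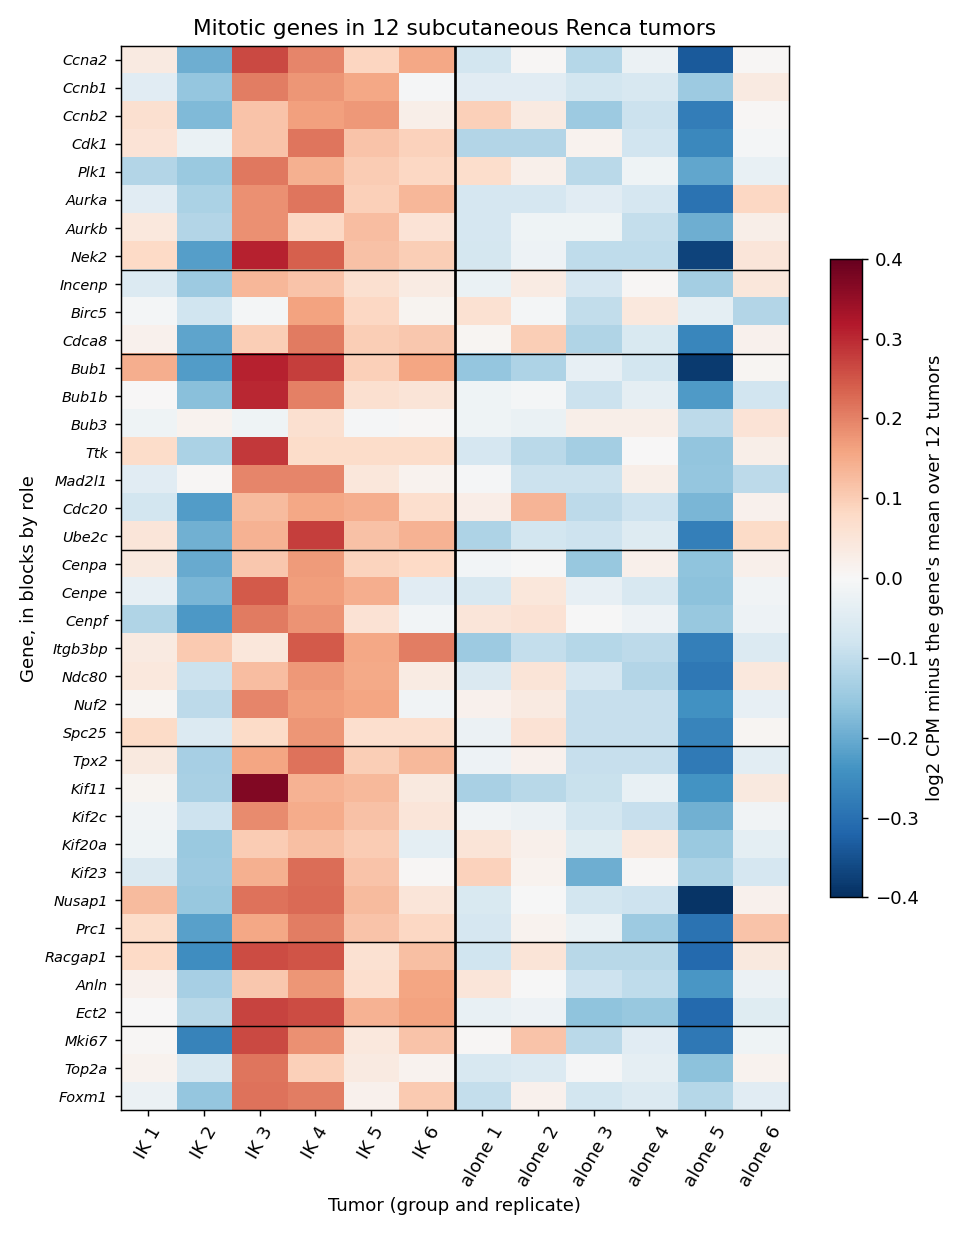
Heat map of the 38 mitotic genes (rows, in blocks by role) in the 12 tumors (columns), colored by log2 CPM minus the gene's mean over all tumors. Replicates 3 and 4 with an IK tumor are the reddest columns, and replicate 2 with an IK tumor and replicate 5 alone are the bluest.

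The spread between tumors of a group was close to the difference between groups. The mean over the 38 members in log2 CPM was 6.31 ± 0.12 (SD, n = 6) in the group with an IK tumor and 6.18 ± 0.08 (SD, n = 6) in the other. Replicates 3 and 4 with an IK tumor held the highest value of 19 and 18 members. Replicate 5 of the tumors alone held the lowest of 29 members and replicate 2 with an IK tumor the lowest of 7. The SD was larger with an IK tumor than alone in 32 of the 38 genes. Replicate 2 was also the lowest of its own group in 35 of the 38. By tumor, that mean was 6.26, 6.11, 6.43, 6.43, 6.35 and 6.31 log2 CPM in replicates 1 to 6 with an IK tumor. It was 6.21, 6.24, 6.17, 6.19, 6.02 and 6.25 in replicates 1 to 6 alone. Apart from replicate 2, every tumor with an IK tumor thus had a higher mean than every tumor alone. In 15 of the 38 genes at least 5 of the 6 tumors with an IK tumor lay above all 6 tumors alone, which held for 2.43% of all tested genes.

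In each group the tumor of lowest mitotic mean was also extreme in leukocyte, fibroblast and epithelial marker means. The other tumors did not all follow that order, and the part of tumor composition in it was not tested. Replicate 6 of the tumors alone had the lowest leukocyte mean of any tumor (6.47) and the highest epithelial mean (6.9). Its mitotic mean (6.25) was the highest of the tumors alone, beside 6.26 in replicate 1 with an IK tumor. The mean of 8 pan-leukocyte markers was 7.30 in replicate 2 with an IK tumor and 6.49 to 6.67 in the other 5 of that group. Alone, it was 7.38 in replicate 5 and 6.47 to 7.09 in the others. The tumor of lowest mitotic mean in each group thus had the highest leukocyte marker mean. All 8 leukocyte markers had lower means with an IK tumor, by a median of -0.27, and all 9 cytotoxic lymphocyte markers by -1.66, with mean levels per tumor of -0.70 to 3.17 with an IK tumor and 0.42 to 3.33 alone. Fibroblast marker means also peaked in these 2 tumors, at 8.90 and 9.27, against 7.56 to 8.36 and 7.61 to 8.91 in the rest of their groups. Epithelial tumor cell markers were lowest there, at 6.66 and 6.61. The peak in these tumors was not particular to leukocytes and fibroblasts. Cytotoxic (3.17 and 3.33), macrophage (8.27 and 8.21) and endothelial (4.63 and 4.92) marker means were also the highest of their groups there. So were muscle (4.15 and 5.3) and fat cell (3.13 and 4.06) marker means. Between the groups, all 8 fibroblast markers had lower means with an IK tumor, by a median of -0.393. Endothelial markers were lower in 7 of 7 (median -0.133) and macrophage markers in 7 of 8 (median -0.162). Muscle markers were higher in 6 of 9 (median 0.016). Fibroblast, endothelial and macrophage means were not used as covariates. With the leukocyte mean as a covariate, the median difference of the members was 0.061 in place of 0.135, 33 of 38 means stayed higher (51.1% of all genes), and 4 had an unadjusted p under 0.05 (3.48% of all genes). Those 4 were Itgb3bp (0.22), Ect2 (0.16), Mad2l1 (0.13) and Cdk1 (0.13). Taken relative to the epithelial markers of each tumor, the median difference was 0.135, with 38 of 38 higher, and 29 had an unadjusted p under 0.05 (7.3% of all genes). The group means of these markers were both 6.77, so that this centring could hardly move the median. Single markers did not agree: 5 of 7 had lower and 2 higher means with an IK tumor. Their differences ran from -0.1318 to 0.3531, with a median of -0.045. With the mean of muscle and fat markers as a covariate the median was 0.126, with 38 of 38 higher and 19 at an unadjusted p under 0.05 (6.57% of all genes). Skin markers were meant to enter it, but none was tested. Fat cell markers had lower means with an IK tumor in 5 of 5, by a median of -1.153. Red cell markers had higher means with an IK tumor in 4 of 4, by a median of 0.309. Replicate 2 with an IK tumor, at 3.35, lay below replicates 1, 3, 5 and 6 and above replicate 4 of its group. Alone, replicate 5 was the highest of its group, at 3.45 against 2.84 to 3.41 in the others. The part of red cells in the mitotic differences was not tested.

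**Figure D2:**
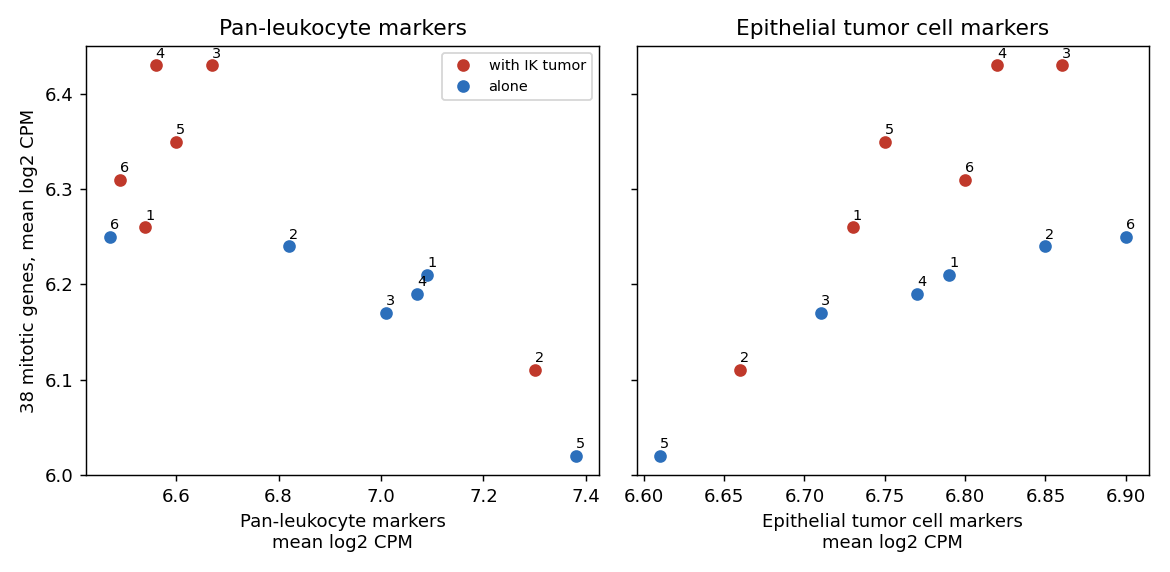
Mean log2 CPM of the 38 mitotic genes (vertical axis) against the mean of the pan-leukocyte markers (left) and of the epithelial tumor cell markers (right), 1 point per tumor with its replicate number, red with an IK tumor and blue alone. Replicate 2 of the red points (6.11) and replicate 5 of the blue points (6.02) lie lowest in both panels, at the high end of the leukocyte axis and the low end of the epithelial axis.

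Promoter sequences are shown because the members varied together and many late cell cycle genes carry the same short elements. The CHR element (TTTGAA) is bound by MuvB complexes and the CCAAT box by NF-Y. RefSeq promoters (GRCm38.p6, 250 bases before to 50 after a start) were matched by symbol for 32 of the 38 genes. The letters TTTGAA, on either strand, stood in 23 of the 32 (71.9%), against 20.2% of all 27025 genes with a promoter used here. CCAAT, on either strand, stood in 24 of the 32, against 41.1%. Both were present in 20 (62.5%) against 8.97%. TTTGAA stood in 45.1% of 91 other mitotic genes and in 17.6% of 17 DNA replication genes, and CCAAT in 59.3% and 70.6%. Overlap of the words was allowed. Matches are letters in a window and not shown binding sites. Promoters of Ccna2, Aurkb, Incenp, Tpx2, Kif20a and Foxm1 were not used here.

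The 150 bases from 120 before to 30 after the start follow, 5′ to 3′, for the 4 members of smallest p and for Cenpf, one of the least different. Capitals mark TTTGAA and CCAAT or their reverse complements, and the coordinates are not those of the build named for the deposited table.
Itgb3bp (chr4:99829129-99829278, minus strand): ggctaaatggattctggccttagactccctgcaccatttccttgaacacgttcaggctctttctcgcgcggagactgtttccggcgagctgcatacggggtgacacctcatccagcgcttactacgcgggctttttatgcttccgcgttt
Cdk1 (chr10:69352883-69353032, minus strand): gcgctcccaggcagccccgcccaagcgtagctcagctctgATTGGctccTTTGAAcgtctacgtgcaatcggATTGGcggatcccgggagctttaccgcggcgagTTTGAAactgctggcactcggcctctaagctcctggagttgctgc
Ect2 (chr3:27153825-27153974, minus strand): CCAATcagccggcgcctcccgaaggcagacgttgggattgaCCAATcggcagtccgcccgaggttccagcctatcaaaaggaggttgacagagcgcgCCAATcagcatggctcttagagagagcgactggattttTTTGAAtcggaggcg
Bub1 (chr2:127831830-127831979, minus strand): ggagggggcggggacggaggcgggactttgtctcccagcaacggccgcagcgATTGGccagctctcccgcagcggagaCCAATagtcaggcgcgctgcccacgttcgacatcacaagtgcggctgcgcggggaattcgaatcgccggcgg
Cenpf (chr1:189688057-189688206, minus strand): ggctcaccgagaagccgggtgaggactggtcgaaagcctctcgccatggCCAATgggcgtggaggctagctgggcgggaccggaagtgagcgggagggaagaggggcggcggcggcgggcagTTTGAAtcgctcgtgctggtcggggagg
Ect2 has 2 listed starts, of which 1 is shown. Cdk1 holds 2 copies of TTTGAA and 2 of CCAAT in this stretch, and Ect2 holds 1 and 3. Bub1 holds 2 copies of CCAAT and no TTTGAA. Cenpf, whose groups hardly differed, holds 1 of each. Itgb3bp, the gene of largest difference, holds neither in the stretch or in the whole 300-base window. Birc5, Mad2l1, Nuf2 and Nusap1 also hold neither in that window, with differences of 0.05, 0.14, 0.13 and 0.20. A link between these words and the size of the difference was not tested.

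The cyclin and kinase genes had differences of 0.09 to 0.21, and 5 of the 8 had an unadjusted p under 0.05 (5.86% of all genes, with a higher mean). Cdk1, the kinase that drives entry into mitosis, measured 6.96, 7.09 and 7.20 log2 CPM (lowest, median, highest) with an IK tumor and 6.73, 6.89 and 7.0 alone. The groups met only where replicate 2 with an IK tumor lay below replicates 3 and 6 alone, and 5 of 6 tumors with an IK tumor lay above all tumors alone. The difference was 0.19 ± 0.05 (SE, limma, adjusted p = 0.432). Ccna2, cyclin A, had means of 7.20 ± 0.16 and 7.02 ± 0.13 (SD, n = 6 each) and differed by 0.18 ± 0.08 (SE). The cyclin B genes differed less, Ccnb1 by 0.11 (95% interval -0.02 to 0.24) and Ccnb2 by 0.12 (-0.03 to 0.28). In both, replicate 2 with an IK tumor lay below 5 or more tumors alone.

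Among these 8 genes Nek2, a kinase that acts in centrosome separation, differed most, by 0.21 ± 0.09 (SE, limma, adjusted p = 0.432). Its values were 5.60, 5.93 and 6.13 with an IK tumor and 5.45, 5.74 and 5.87 alone. Aurka, the spindle pole Aurora kinase, differed by 0.15. Aurka measured 5.66, 5.90 and 6.00 with an IK tumor and 5.49, 5.72 and 5.87 alone. Replicates 1 and 2 with an IK tumor lay inside the range of the tumors alone. Aurkb, the centromeric Aurora kinase, differed by 0.13. Aurkb measured 5.24, 5.43 and 5.54 with an IK tumor and 5.16, 5.32 and 5.38 alone. There 5 of 6 tumors with an IK tumor lay above all tumors alone. Plk1, the Polo-like kinase of mitotic entry and exit, had the smallest difference of the 8, at 0.09 with an interval of -0.06 to 0.23. Plk1 measured 5.59, 5.83 and 5.95 with an IK tumor and 5.53, 5.71 and 5.81 alone. Its replicates 1 and 2 with an IK tumor were lower than 5 of the 6 tumors alone. Replicate 5 alone was the lowest tumor for 7 of these 8 genes.

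Partners of Aurora B in the chromosomal passenger complex stood nearer to 0. Incenp, the scaffold, and Birc5 (survivin) each differed by 0.05, with intervals of -0.06 to 0.16 and -0.05 to 0.15. Cdca8 (borealin) differed by 0.11. Cdca8 measured 5.44, 5.75 and 5.86 with an IK tumor and 5.39, 5.62 and 5.75 alone. None of the 3 had an unadjusted p under 0.05 (limma). Birc5 measured 5.43, 5.51 and 5.67 with an IK tumor and 5.39, 5.48 and 5.57 alone, and the groups overlapped over most of their range. It also followed the other members least within the groups, with a correlation of 0.45 to their mean over 12 tumors, against 0.97 for Incenp.

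Spindle checkpoint genes spread from the smallest to nearly the largest difference. Bub1, a checkpoint kinase at the kinetochore, measured 5.65, 6.03 and 6.18 with an IK tumor and 5.49, 5.78 and 5.88 alone. Only replicate 2 with an IK tumor lay within the range of the tumors alone. The difference was 0.25 ± 0.09 (SE, limma, adjusted p = 0.432), a fold of 1.19. Without that tumor it was 0.32 (adjusted p = 0.0447), and Bub1 was then the only member called, where 0.143% of all genes were called higher. Bub3, the partner that brings BUB1 and BUBR1 to kinetochores, measured 6.76, 6.77 and 6.84 against 6.67, 6.78 and 6.83. The groups overlapped over most of their range, and the 95% interval of the difference was -0.05 to 0.08.

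The other checkpoint members lay between. Bub1b, the gene of BUBR1, and the kinase gene Ttk (MPS1) both differed by 0.15, and Mad2l1, which inhibits CDC20, by 0.14. Mad2l1 measured 5.50, 5.58 and 5.74 with an IK tumor and 5.39, 5.46 and 5.57 alone. Its replicates 1, 2 and 6 with an IK tumor lay within the range of the tumors alone. For Ttk, 5 of 6 tumors with an IK tumor lay above all tumors alone. The APC/C activator Cdc20 differed by only 0.06 (-0.09 to 0.22), whereas Ube2c, the ubiquitin-conjugating enzyme of the APC/C, differed by 0.17 ± 0.07 (SE, limma, adjusted p = 0.432). Exons of Ube2c overlap those of the muscle gene Tnnc2 on the opposite strand over 22.8% of their length in a newer annotation. Ube2c measured 6.18, 6.50 and 6.65 with an IK tumor and 6.10, 6.30 and 6.45 alone. Tnnc2 reached at most 3.04 CPM in a tumor, against at least 68.6 CPM for Ube2c.

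**Figure D3:**
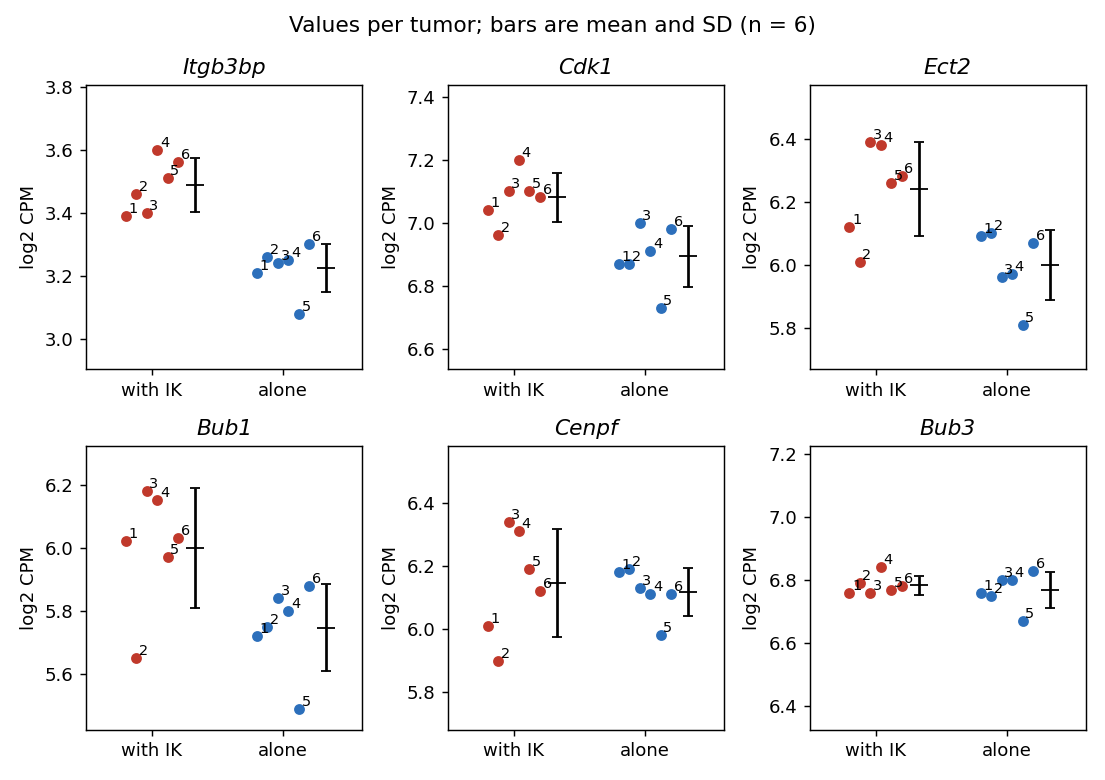
Log2 CPM of 6 mitotic genes in each tumor, numbered by replicate, with the mean and SD of each group of 6 beside the points and the same span of 0.9 on each vertical axis. Itgb3bp shows no overlap between groups, Bub1 overlaps by replicate 2 with an IK tumor, and Cenpf and Bub3 overlap over most of their range.

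At the kinetochore, Itgb3bp stood apart. It encodes CENP-R, a subunit of the inner kinetochore complex of CENP-O, CENP-P, CENP-Q, CENP-U and CENP-R. Its values were 3.39, 3.46, 3.40, 3.60, 3.51 and 3.56 log2 CPM in replicates 1 to 6 with an IK tumor and 3.21, 3.26, 3.24, 3.25, 3.08 and 3.30 alone. All 6 tumors with an IK tumor lay above all 6 alone, replicate 2 included, which held for 1 of the 38 members and for 0.278% of all genes. The difference of 0.26 ± 0.05 (SE) was a fold of 1.20, and its p was the 7th smallest of 14008 genes (limma, adjusted p = 0.432). It stayed at 0.23 to 0.28 with any 1 tumor left out. Its exons overlap 8.6% with Pgm1, a glucose metabolism gene on the opposite strand in the newer annotation. Pgm1 itself differed by 0.36 (adjusted p = 0.432), at 5.85 to 6.92 log2 CPM, and its part in the value of Itgb3bp was not tested.

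The 4 partners of CENP-R, looked up after its values were seen, also had higher means. Cenpq was higher by 0.23 ± 0.05 (SE, limma, adjusted p = 0.432), again with no overlap between groups. Cenpp differed by 0.27, Cenpu by 0.22 and Cenpo by 0.095, each with an unadjusted p under 0.05 and an adjusted p of 0.432 (limma). Such a p with a higher mean was found in 5.86% of all genes. It was also found in 13 of the 30 other centromere and kinetochore genes, which include these 4. Of those 30 genes, 29 had higher means, so this direction was not particular to the partners of CENP-R. Cenpp and Cenpu are low, at means of 2.66 to 2.93, but were covered by at least 322 reads in each tumor.

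The other kinetochore members had smaller differences than Itgb3bp. Ndc80, Nuf2 and Spc25, of the NDC80 complex that binds microtubules, differed by 0.15, 0.13 and 0.14, each with an unadjusted p under 0.05 (limma). Ndc80 measured 5.48, 5.65 and 5.74 with an IK tumor and 5.28, 5.50 and 5.62 alone. Cenpa, the centromeric histone H3 variant, differed by 0.09 and the kinesin gene Cenpe by 0.10. Cenpf, a large protein of the outer kinetochore, measured 5.90, 6.16 and 6.34 with an IK tumor and 5.98, 6.12 and 6.19 alone. Replicates 1 and 2 with an IK tumor were among the lowest of the 12 and replicates 3 and 4 were the highest. Its difference was 0.03 (-0.13 to 0.18), and -0.0103 without replicate 3 and -0.0037 without replicate 4 of that group.

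The 7 spindle genes differed by 0.04 to 0.20, and 4 of them had an unadjusted p under 0.05 (5.86% of all genes, with a higher mean). Nusap1, which bundles microtubules near chromosomes, differed by 0.20 ± 0.08 (SE, limma, adjusted p = 0.432). Its values were 6.24, 6.52 and 6.62 with an IK tumor and 6.00, 6.32 and 6.41 alone. Kif11 (Eg5), the motor that pushes spindle poles apart, differed by 0.19, and Tpx2, the activator of Aurora A on spindle microtubules, by 0.17. Kif11 measured 6.08, 6.30 and 6.58 with an IK tumor and 5.97, 6.11 and 6.25 alone. Tpx2 measured 7.64, 7.89 and 7.99 with an IK tumor and 7.49, 7.71 and 7.79 alone. For Tpx2, 5 of 6 tumors with an IK tumor lay above all tumors alone. The microtubule depolymerase Kif2c differed by 0.13 and the midzone bundler Prc1 by 0.14. Genes of the central spindle motors stood lowest in this group, Kif23 (MKLP1) at 0.095 and Kif20a (MKLP2) at 0.04, with intervals that held 0. Exons of Kif20a overlap 29.3% with Cdc23, which differed by 0.00.

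Cytokinesis genes had the largest median of the role groups, 0.173 over 3 genes. Ect2, the exchange factor that activates RhoA at the cleavage furrow, measured 6.01, 6.27 and 6.39 with an IK tumor and 5.81, 6.02 and 6.10 alone. Only replicate 2 with an IK tumor lay within the range of the tumors alone, and the difference was 0.24 ± 0.07 (SE, limma, adjusted p = 0.432). Racgap1, which recruits ECT2 to the central spindle, differed by 0.17 and the contractile ring scaffold Anln by 0.13. Racgap1 measured 7.32, 7.67 and 7.83 with an IK tumor and 7.26, 7.47 and 7.62 alone. Their intervals were -0.01 to 0.36 and 0.01 to 0.26.

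The common markers of proliferation had differences below the median of the 38. Mki67, the gene of the Ki-67 antigen, measured 8.92, 9.26 and 9.45 with an IK tumor and 8.90, 9.15 and 9.30 alone, and differed by 0.12 (-0.07 to 0.30). The groups overlapped, with replicate 2 of the tumors alone above the median of the other group. Top2a, the topoisomerase that untangles sister chromatids, differed by 0.10 ± 0.05 (SE). Top2a measured 8.30, 8.39 and 8.58 with an IK tumor and 8.20, 8.32 and 8.38 alone. Foxm1, the transcription factor of the G2 and M phase program, had means of 6.25 ± 0.14 and 6.12 ± 0.04 (SD, n = 6 each) and differed by 0.12. Per kb of exon (GENCODE M21, all exons merged), Mki67 had the highest level of the 38, at 60.2 CPM per kb with an IK tumor and 55.6 alone. Itgb3bp had the lowest, at 2.42 and 2.02.

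**Figure D4:**
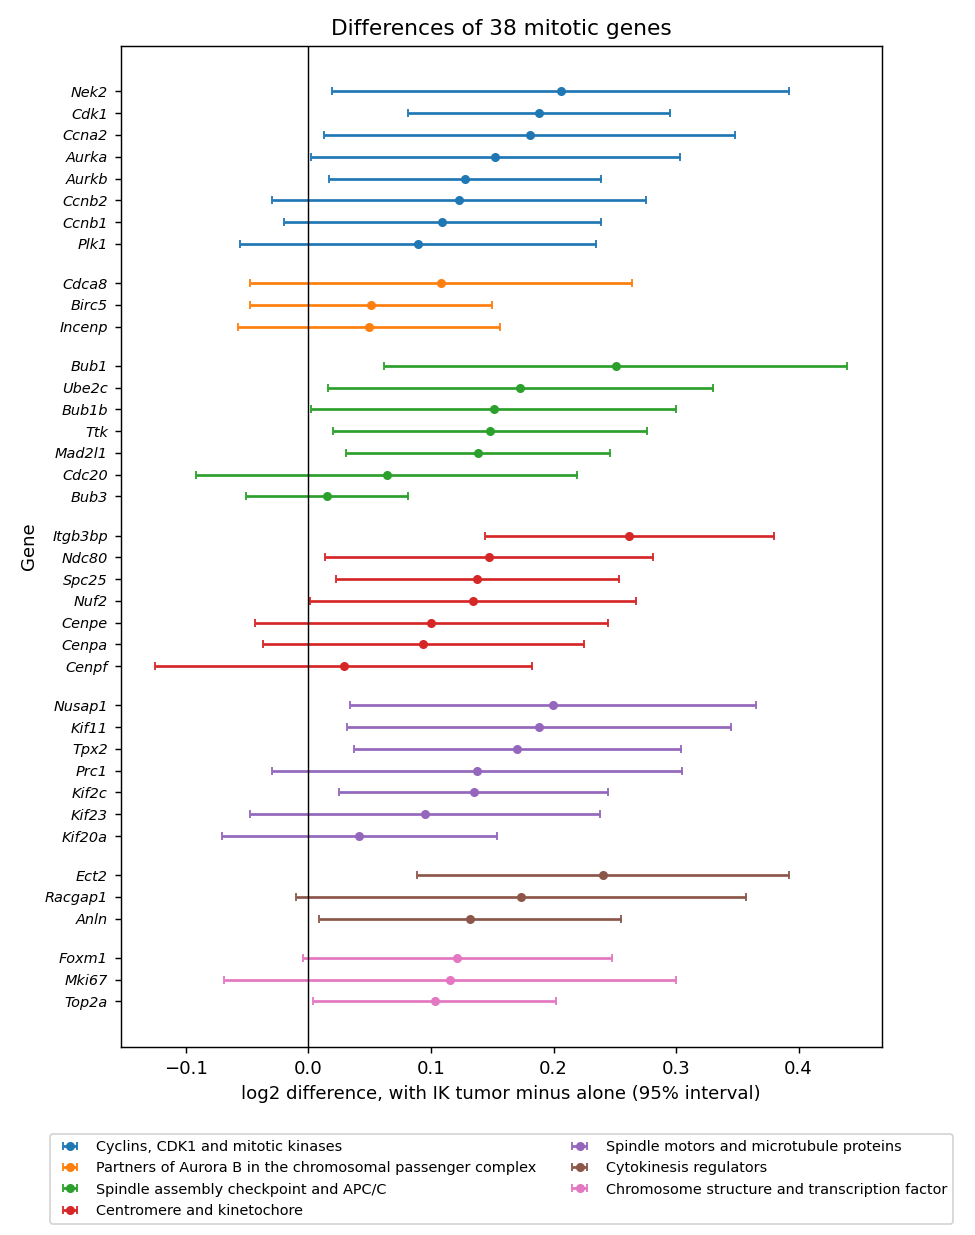
Log2 difference of each of the 38 mitotic genes, with an IK tumor minus alone, as points with 95% intervals from limma, colored and blocked by role. Every point lies above 0, from 0.02 for Bub3 to 0.26 for Itgb3bp, and 17 intervals hold 0.

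Genes of the same processes outside the 38 stood in the same direction. Of 108 other mitotic genes 100 had higher means (53.3% of all genes did), with a median of 0.107. An unadjusted p under 0.05 was found with a higher mean in 28 (5.86% of all genes) and with a lower mean in 1, Numa1 (5.61% of all genes). None passed over all genes (limma, 0 of 108). All 8 condensin genes were higher, with Ncapg (0.24) and Smc2 (0.20) of smallest p, and all 8 other mitotic kinesins, with Kif15 (0.13) and Kif18a (0.15). Centromere and kinetochore genes were higher in 29 of 30, all but Cenpt (-0.09). Kinases and CDK1 regulators were higher in 16 of 17, with the centriole kinase Plk4 (0.22) and the CDK1 phosphatase Cdc25c (0.22). Other spindle and cytokinesis genes were higher in 22 of 23, with Ckap5 (0.14) and Cep55 (0.15), and Numa1 at -0.07.

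Subunits of the APC/C, its regulators, separase and shugoshins had the smallest median of the 6 mitotic lists outside the 38, 0.059, with 17 of 22 higher. The APC/C inhibitor Fbxo5 (EMI1) differed by 0.17 and the subunit Anapc4 by 0.07, while Anapc13 was at -0.15.

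Cell cycle regulators and DNA replication genes had mostly higher means, where 53.3% of all tested genes did, with some regulators lower. Of 18 MuvB, B-MYB, E2F and pocket protein genes 14 had higher means, among them E2f1 (0.17), Rbl1 (0.15) and Mybl2 (0.19), the gene of B-MYB. G1 cyclins and their kinases had a median of 0.053 with 6 of 8 higher. Ccne2, a cyclin of entry into S phase, differed by 0.28, Ccnd1 by -0.04 and Ccnd2 by -0.56. The CDK inhibitor Cdkn1a (p21) differed by 0.34 ± 0.18 (SE, limma, adjusted p = 0.461), and Btg2 and Ccng2 by 0.12 and 0.25. In all 7 of 9 such inhibitory genes had higher means. The 20 DNA replication genes were all higher, with a median of 0.109, led by Cdc45 (0.15) and Rrm2 (0.19), with Mcm2 at 0.11 and Pcna at 0.13. In these 4 lists 0 genes passed over all genes (limma), and 5, 1, 0 and 8 had an unadjusted p under 0.05 with a higher mean (5.86% of all genes).

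**Figure D5:**
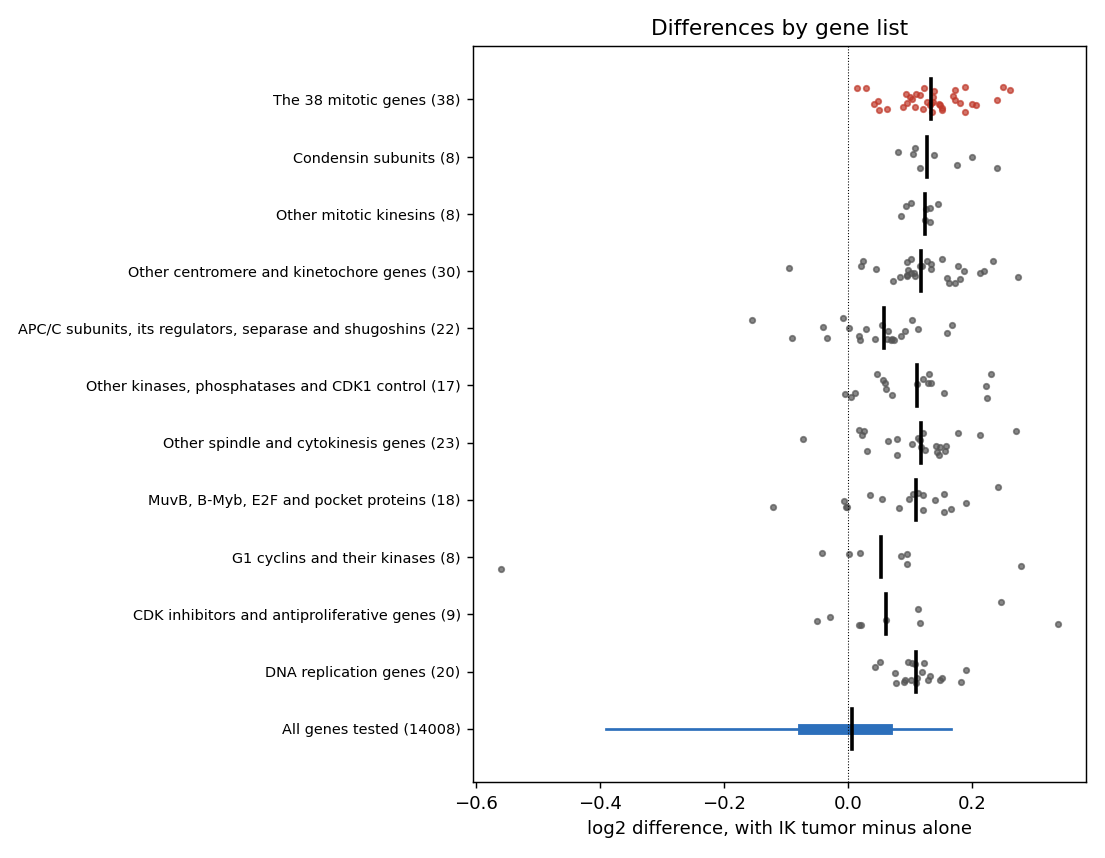
Log2 differences of single genes (points) in the 38 mitotic genes and in 10 further lists, with list medians as black bars and, at the bottom, the median, quartiles and 5th to 95th percentile of all tested genes. The 38 genes have a median of 0.135, the APC/C list one of 0.059, and all genes one of 0.007.

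Limma's array weights count a tumor less the further its values lie from its group mean over all genes. They come from these same values and use no separate measure of RNA or library quality. With them 6 of the 38 members were called, Bub1, Cdk1, Ect2, Itgb3bp, Nusap1 and Ube2c (limma, Benjamini-Hochberg adjusted p of 0.0369 to 0.0489). Of all genes, 0.957% were called higher. With these weights 29 members had an unadjusted p under 0.05, against 13.2% of all genes. The number of members with an unadjusted p under 0.05 was 31 without replicate 2 with an IK tumor (12.5% of all genes), 9 without replicate 3 of that group (4.4%) and 9 without replicate 5 alone (3.08%).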

How the data were processed

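RNA was isolated with a Qiagen kit and sequenced from Illumina TruSeq libraries, per the labels' protocols. The submitters' processing notes list the build mm9, TopHat 1.4.1, CASAVA 1.8.2, limma and HTSeq. How HTSeq treated strands, and which annotation it used, is not given in the sources used here. How reads in overlapping exons were assigned is therefore not known, and 12 of the 38 genes overlap another in GENCODE M21. The authors deposited log2 values of the form of log2 CPM with 0.5 reads added: 100% of them gave whole reads within 0.001 of a read, and the sums of these reads are the depths.

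Symbols were matched by identifier (14004 of 14496 genes). A gene was tested if its log2 value reached 0 in 6 or more tumors (14008 genes). The test was limma 3.58.1 (R 4.3.3), two-sided, with trended variances, Benjamini-Hochberg adjustment over all tested genes and a threshold of 0.05, and it gave the 95% intervals. Lists are described by counts and medians. Promoters of 1 chromosome were left out of the motif counts. The text names all 38 members, of each further list the 2 genes of smallest p, and Mybl2, E2f1, Cdkn1a, Ccnd1, Mcm2 and Pcna; Cenpt, Numa1, Anapc13, Cenpo and Cenpu were added after their values were seen. The members and lists were chosen with earlier results of these data known. Alternatives were other filters, scalings, variance models, tumor weights, covariates, voom on the recovered reads, a replicate block and leaving out each tumor. No 2 libraries of a group agreed within counting error (30 pairs).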

Additional observations from a re-analysis of the deposited data

Results flagged for a closer look

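Within a group of 6 tumors, single values that stood far from the other 5 were found in 9 of 76 sets of values, where chance gives about 1 in 20 sets. Replicate 5 of the tumors alone stood low in 6 genes: Ccna2 at 6.77 log2 CPM (the other 5 at 6.99 to 7.11), Nek2 at 5.45 (5.72 to 5.87), Bub1b at 6.45 (6.59 to 6.67), Cenpf at 5.98 (6.11 to 6.19), Tpx2 at 7.49 (7.68 to 7.79) and Nusap1 at 6.00 (6.31 to 6.41). Replicate 2 with an IK tumor stood low in Cenpa at 5.42 (5.66 to 5.79) and in Prc1 at 6.90 (7.19 to 7.32). Replicate 4 of that group stood high in Bub3, at 6.84 (6.76 to 6.79). The sets are not independent, since the members vary together, and replicate 5 alone and replicate 2 with an IK tumor have the highest leukocyte marker means of their groups.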

How the results depend on the processing

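Over 24 alternatives the median difference of the 38 genes ran from 0.061 with the leukocyte covariate to 0.169 without replicate 2 with an IK tumor. All lay within 1 SD between tumors (0.104) of 0.135. That margin is close to the difference itself, so staying within it says little about stability. With single tumors left out it was 0.1 to 0.169. All 38 means were higher under every alternative other than 4. These were the leukocyte covariate (33) and leaving out replicates 3 and 4 with an IK tumor or replicate 5 alone (37 each), so 37 to 38 with 1 tumor left out.

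Genes reversed only near 0. With the leukocyte covariate these were Incenp (-0.0098), Bub3 (-0.0048), Cdc20 (-0.0238), Cenpf (-0.0361) and Kif20a (-0.0009). With 1 tumor left out, Cenpf ran from -0.0103 (without replicate 3 with an IK tumor; -0.0037 without replicate 4) to 0.078, and Bub3 from -0.0047 (without replicate 5 alone) to 0.0279. The cause was not tested.

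Calls over all genes (limma) were 0, but 1 with no variance trend and 545 with array weights, and 0 to 137 with 1 tumor left out. Calls among the 38 were 0, but 6 with array weights, and 0 to 1 with 1 tumor left out. The count at an unadjusted p under 0.05 was 21, but 4 with the leukocyte covariate, and 9 to 31 with 1 tumor left out. Under the other alternatives it ran from 15 (replicate block) to 29 (array weights and epithelial centring). It also moved by over 1.5 times without replicate 4 (10, against 451 of all 13984 genes) or 5 (11, against 707 of 13978) with an IK tumor. The cause of these moves was not tested.

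Same-numbered tumors of the groups did not all deviate together over all genes (correlations of -0.305 to 0.447, highest for replicate 6). Differences in tumor composition also enter these correlations, so they cannot tell whether the numbers pair the tumors. A replicate block left 0 members called and 15 at an unadjusted p under 0.05 with a higher mean, against 772 of all 14008 genes. Depth limits the precision mainly for Itgb3bp.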
